A study of Mus musculus with 6 samples.

Results

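The genes described here are 33 genes of DNA replication and mitosis, chosen by gene symbol, out of 41053 gene names in the count table. Of these, 17 act in the start or the execution of DNA replication and 16 in mitosis or its preparation, and all 33 passed the filter on low counts. RNA was sequenced from naive B cells of the spleen of C57BL/6 mice, with 3 libraries from TET2 knockout and 3 from TET2 wild type (both as labelled), and the numbers 2, 3 and 4 recur in each genotype. TET2 oxidizes methylated cytosines in DNA, a step towards their demethylation, and the comparison asks which transcripts differ when it is missing. The labels used here give neither the design of the knockout allele or the cells it acts in, nor the age or sex of the mice, nor whether each library came from its own mouse. The p-values therefore rest on the spread among 3 libraries a genotype, and that spread may be technical.

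Cells in G1 phase load the MCM helicase, a ring of the subunits Mcm2 to Mcm7, onto origins, and cyclin E with Cdk2 then helps to start S phase. Transcription factors of the E2F family switch on genes of the replication machinery, while many mitotic genes are switched on later, in G2 phase, through CCAAT boxes and the cell cycle homology element (CHR). Naive B cells of the spleen are mostly resting cells that enter the cycle after contact with antigen. In resting cells the DREAM complex keeps many genes of both classes repressed, partly through E2F sites and the CHR. In bulk RNA, a change in the number of cycling cells and a change in RNA per cell cannot be told apart.

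Total counts per library ranged from 35101788 to 45401781. Levels are in CPM, the counts of a gene scaled to the TMM-normalized total of its library. Tet2 itself had 59.4, 64.8 and 50.02 CPM in knockout libraries 2, 3 and 4 against 74.6, 83.2 and 56.8 CPM in wild type, with overlapping groups (log2 change −0.30, edgeR adjusted p = 0.408). Since the labels do not say which exons were removed, this level does not check them. Y-linked Kdm5d had 23.3, 34.2 and 34.9 CPM in knockout and at most 0.0571 CPM in wild type, so the level of this gene separates the genotypes completely. Sex is thus confounded with genotype in these libraries, and a genotype difference in any gene below cannot be told apart from a sex difference. In both genotypes library 4 differed from libraries 2 and 3, and the main results are given with and without the libraries numbered 4. B-cell markers were high in every library, with Ms4a1, which encodes CD20, between 1788 and 2659 CPM. Of the 11 naive B-cell markers tested, 0 were called (edgeR, DESeq2 and limma-voom) and 1 was higher at an unadjusted p under 0.05 (edgeR), while 9 had a positive log2 change (median 0.13, against 0.19 within libraries 2 and 3 and −0.02 within pair 4). Over all tested genes, 7.85% were higher at that p (edgeR) and 48.8% were positive. The naive B-cell markers summed to 25362, 24672 and 21822 CPM in knockout and to between 20484 and 21953 CPM in wild type. Knockout libraries 2 and 3 were thus highest here too. The part of this shift in the results below was not tested.

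Promoter sequences are shown for 5 genes: those that passed the threshold once the libraries numbered 4 had a term of their own (Top2a, Mki67, Mcm3 and Mcm6), and Cdk1, which had the highest log2 change of all 33. Each is the 250 bases before the RefSeq gene start on GRCm38.p6, 5′ to 3′ on the gene's strand, and capitals mark E2F cores, CHR elements and CCAAT boxes on either strand.
Top2a, chr11:99024190-99024439, minus strand: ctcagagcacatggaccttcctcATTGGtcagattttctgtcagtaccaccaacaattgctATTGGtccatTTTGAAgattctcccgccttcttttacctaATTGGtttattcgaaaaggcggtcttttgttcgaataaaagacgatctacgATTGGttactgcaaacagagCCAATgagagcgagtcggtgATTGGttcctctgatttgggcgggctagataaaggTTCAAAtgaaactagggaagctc
Mki67, chr7:135716380-135716629, minus strand: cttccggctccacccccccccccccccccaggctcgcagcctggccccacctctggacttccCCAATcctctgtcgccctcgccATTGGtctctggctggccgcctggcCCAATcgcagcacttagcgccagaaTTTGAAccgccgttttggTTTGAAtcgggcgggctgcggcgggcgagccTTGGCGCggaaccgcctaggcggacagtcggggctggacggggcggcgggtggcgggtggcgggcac
Cdk1, chr10:69352913-69353162, minus strand: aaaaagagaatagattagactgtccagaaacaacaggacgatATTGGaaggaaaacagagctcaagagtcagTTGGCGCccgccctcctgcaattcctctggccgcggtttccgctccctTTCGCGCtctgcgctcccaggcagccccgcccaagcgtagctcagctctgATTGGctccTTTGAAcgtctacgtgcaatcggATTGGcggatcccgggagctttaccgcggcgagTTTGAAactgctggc
Mcm3, chr1:20820313-20820562, minus strand: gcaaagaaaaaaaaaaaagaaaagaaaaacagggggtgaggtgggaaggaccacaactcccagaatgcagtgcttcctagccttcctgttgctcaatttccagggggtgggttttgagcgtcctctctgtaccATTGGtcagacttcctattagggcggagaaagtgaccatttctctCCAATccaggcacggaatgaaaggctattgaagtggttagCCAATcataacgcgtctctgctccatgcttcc
Mcm6, chr1:128359706-128359955, minus strand: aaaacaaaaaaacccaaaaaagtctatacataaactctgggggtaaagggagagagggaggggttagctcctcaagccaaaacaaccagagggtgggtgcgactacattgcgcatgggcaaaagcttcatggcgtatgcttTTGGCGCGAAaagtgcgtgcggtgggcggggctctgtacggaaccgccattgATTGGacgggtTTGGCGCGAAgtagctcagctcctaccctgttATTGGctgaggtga

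RefSeq promoter windows were matched for 29 of the 33 genes, all but Mcm4, Aurkb, Ccne2 and Ccna2. On both strands, the E2F core was searched with the letters TTCCCGC, with the variant TTGGCGC, with the variant TTCGCGC and with the variant TTGCCGC. The CHR was searched as TTTGAA and the CCAAT box by the letters of its name. A CCAAT box was present for 13 of 14 mitosis genes and 11 of 15 replication genes, and in 33.8% of all 32851 promoter windows. The CHR letters were present for 6 of 14 mitosis genes and 3 of 15 replication genes, against 16% of all windows. An E2F core was present for 7 of 15 replication genes and 3 of 14 mitosis genes, against 7.89% of all windows. A gene was counted if any of its windows matched, while the shares of all are per window. The 15 replication genes had 17 windows, of which 13 held a CCAAT box, 3 the CHR letters and 8 an E2F core. The 14 mitosis genes had 14 windows. In the window of Top2a, which encodes the topoisomerase that untangles chromosomes, 6 CCAAT boxes and 2 CHR elements were found, and no E2F core. The window of Mcm6 held 4 E2F cores, in pairs that overlap each other, and that of Mcm3 held none. These matches describe letters in a window of 250 bases and are not evidence of binding.

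In wild-type cells the classes differed in level. Levels of different genes were compared in CPM per kilobase of exon, the length covering all annotated exons of a gene. A gene with annotated exons that these cells do not use may come out too low on this scale. The median of the replication genes was 15.1, that of the mitosis genes 1.05 and that of all 13604 tested genes 7.004. Of the 16 mitosis genes, 15 lay below the median of all tested genes, as did 7 of the 17 replication genes. The exception in the mitosis class was Cenpa, the histone H3 variant of centromeres, at 11.9 ± 0.864 CPM per kilobase (SD, n = 3 libraries).

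Within the replication class, the highest wild-type levels were those of Pcna, the sliding clamp of DNA polymerases, at 33.3 ± 3.47 CPM per kilobase, and Cdk2, the S-phase kinase, at 31.0 ± 2.78. These values were within their spread of each other. The MCM subunits lay between 9.61 (Mcm7) and 22.1 (Mcm5) CPM per kilobase. Cdc6, which loads the MCM ring onto origins, was the lowest replication gene at 0.222 ± 0.0618 CPM per kilobase. Tyms, the enzyme that makes thymidylate, was at 0.487 ± 0.0895 and Ccne2, cyclin E2, at 0.951 ± 0.0768. Genes of the helicase ring and the clamp thus stood above the median of all tested genes, and the genes of its loader Cdc6 and of Tyms well below it on this scale. The exon lengths used were 5229 bases for Cdc6 and 6089 bases for Tyms, over all annotated exons.

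The lowest mitosis genes were Bub1, a kinase of the spindle checkpoint, at 0.215 ± 0.0535 CPM per kilobase, and Ccnb1, cyclin B1, at 0.229 ± 0.0184. Their counts per library were between 31 and 75 for Bub1 and between 28 and 54 for Ccnb1, so both rest on few reads. Mki67, which encodes the proliferation marker Ki-67, was at 1.14 ± 0.191 CPM per kilobase. All wild-type values in these paragraphs are means over 3 libraries with their SD.

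**Figure D1:**
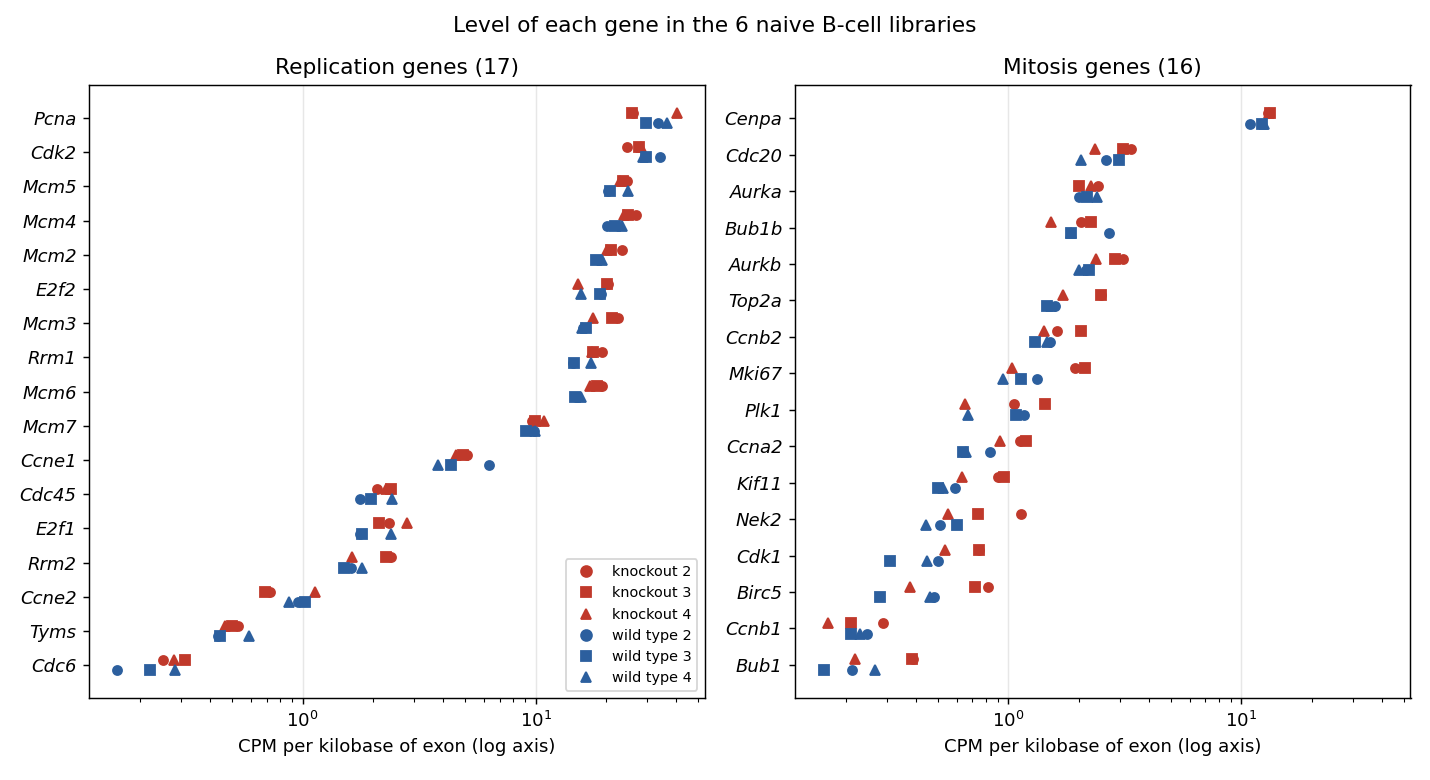
Level of each of the 33 genes in CPM per kilobase of exon (log axis) in the 3 knockout libraries (red) and the 3 wild-type libraries (blue), with 1 symbol per library and the marker shape giving its number. Genes are ordered by their wild-type mean; 15 of the 16 mitosis genes lie below the median of all tested genes (7.004), and Pcna, Cdk2 and the MCM subunits lie above it.

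Between genotypes, no member of either class passed the threshold when all 6 libraries were compared. Mitosis genes lay higher in knockout on balance: 14 of 16 log2 changes were positive, their median was 0.47 and they ran from −0.15 to 0.69. Replication genes differed less, with 13 of 17 positive, a median of 0.14 and a range from −0.20 to 0.36. Over all tested genes 48.8% were positive and the median was −0.0051.

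By edgeR's quasi-likelihood test, 0 of 17 replication and 0 of 16 mitosis genes had an adjusted p under 0.05, where 0.404% of all tested genes did. At an unadjusted p under 0.05, 5 replication and 7 mitosis genes were higher and 0 lower (edgeR), against 7.85% of all tested genes higher and 5.51% lower. DESeq2 called 0 replication genes and 1 mitosis gene, Top2a (DESeq2 adjusted p = 0.0274), where it called 2.57% of all genes, and limma-voom called 0 of either class, where it called 0.331%. Every knockout library lay above every wild-type library for 5 replication and 6 mitosis genes, as for 10.2% of all tested genes. The opposite order was seen for 1 replication gene, Cdk2, and 0 mitosis genes, as for 8.28% of all genes.

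The median difference was larger in libraries 2 and 3 than in the pair numbered 4. The summed level of the 16 mitosis genes was 131, 132 and 99.6 CPM in knockout libraries 2, 3 and 4 and 101, 96.2 and 94.2 CPM in wild type. Knockout libraries 2 and 3 stood above the 4 others, and knockout library 4 lay within the wild-type range. The summed level of the 17 replication genes was 817, 789 and 777 CPM in knockout and 732, 709 and 752 CPM in wild type, so the groups did not overlap. Such a sum is weighted to the most abundant genes. The 52 further replication genes described below summed to 2068.5, 1998 and 2011 CPM in knockout and to between 2027 and 2029 CPM in wild type, without that separation. Within libraries 2 and 3, the median log2 difference was 0.55 for the mitosis genes and 0.26 for the replication genes, with 15 of 16 and 13 of 17 positive, where 49.4% of all tested genes were positive. In the pair numbered 4 it was 0.10 and 0.03, with 9 of 16 and 10 of 17 genes positive, where 49.9% of all tested genes were positive.

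**Figure D2:**
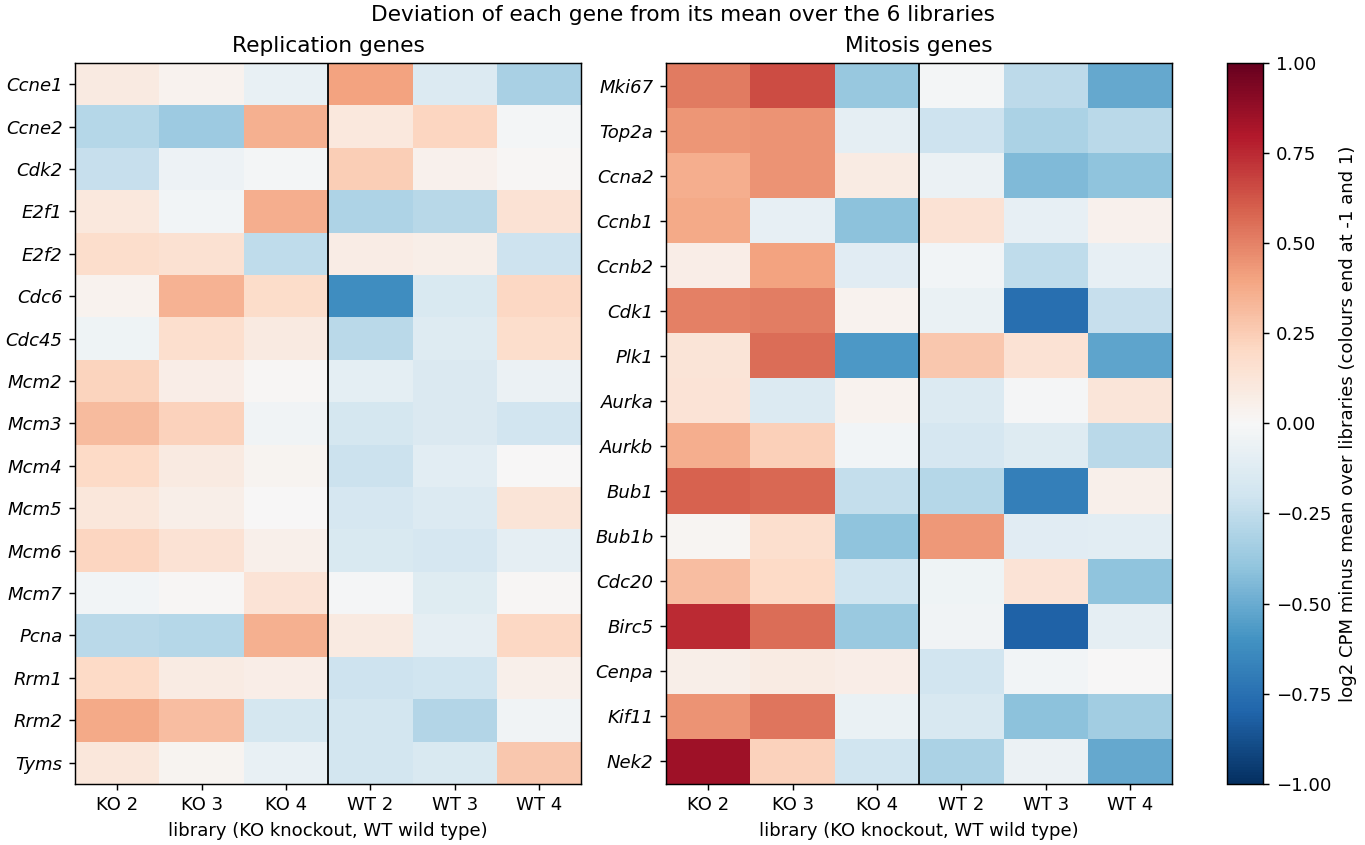
Log2 CPM of each gene minus its mean over the 6 libraries (colour), for replication genes on the left and mitosis genes on the right, with knockout (KO) and wild-type (WT) libraries separated by a line. Most mitosis genes are red in knockout libraries 2 and 3, whose summed levels were 131 and 132 CPM, and not in knockout library 4 at 99.6 CPM.

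Among the genes that start replication, cyclin E and Cdk2 did not share the upward direction. Cdk2 (chromosome 10, 128697939 to 128705051, GRCm38) had 59.9, 67.7 and 69.2 CPM in knockout libraries 2, 3 and 4, against 83.0, 72.3 and 70.5 CPM in wild type. The groups did not overlap, but the gap between knockout library 4 and wild-type library 4 was narrow (log2 change −0.20, SE 0.09, edgeR adjusted p = 0.390). Ccne2 was at 2.54, 2.41 and 3.97 CPM in knockout and 3.33, 3.59 and 3.05 CPM in wild type, with knockout library 4 the highest of all 6 (log2 change −0.17, SE 0.22, edgeR adjusted p = 0.774). Its exons overlap those of Ints8 on the opposite strand and counting used no strand option, so its level is less certain. Ccne1, cyclin E1, had the same mean of 12.9 CPM in both genotypes. The activator E2f1 differed by 0.29 (SE 0.17) and E2f2 by 0.06 (SE 0.12), both with overlapping groups.

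All 6 MCM subunits had a positive log2 change, from 0.08 (Mcm7) to 0.35 (Mcm3), and Mcm2, Mcm3, Mcm4 and Mcm6 separated the genotypes. Mcm3 (chromosome 1, 20802968 to 20820312) had 84.9, 79.8 and 66.4 CPM in knockout libraries 2, 3 and 4, against 60.2, 61.6 and 59.6 CPM in wild type. The wild-type values lay close together and the knockout values ran from just above them to well above (1.27-fold, edgeR adjusted p = 0.200). Mcm6 (chromosome 1, 128331590 to 128359664) was at 89.7, 85.4 and 80.1 CPM in knockout and 69.6, 68.7 and 72.8 CPM in wild type, with every knockout library higher (1.21-fold, edgeR adjusted p = 0.186). Mcm2 was at 78.8, 70.8 and 68.0 CPM in knockout and 63.2, 61.3 and 64.9 CPM in wild type, a narrow separation (1.15-fold, edgeR adjusted p = 0.328). Mcm5 and Mcm7 overlapped between genotypes, and exons of Mcm7 share bases with Cops6 and Ap4m1 on the opposite strand. The log2 difference of Mcm5 changed sign, from 0.24 within libraries 2 and 3 to −0.12 within pair 4. Its highest level of all 6 libraries, 85.5 CPM, was in wild-type library 4.

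Among the origin factors, Cdc6 was at 1.32, 1.64 and 1.47 CPM in knockout and 0.838, 1.16 and 1.48 CPM in wild type, with wild-type library 4 inside the knockout range (log2 change 0.35, SE 0.26). Cdc45, a part of the active helicase, differed by 0.14 (SE 0.16), and its exons share bases with Ufd1l on the opposite strand. Of the nucleotide synthesis genes, the 2 subunits of ribonucleotide reductase were positive. Rrm2 was at 6.60, 6.30 and 4.496 CPM in knockout and 4.48, 4.16 and 4.97 CPM in wild type, so that knockout libraries 2 and 3 were high and knockout library 4 lay among the wild-type libraries (log2 change 0.36, SE 0.18, edgeR adjusted p = 0.426). Rrm1 separated the genotypes (1.17-fold, edgeR adjusted p = 0.325), and Tyms differed by 0.03 (SE 0.19).

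Pcna (chromosome 2, 132249162 to 132253314) had another order of libraries than the MCM genes. Its levels were 62.9, 62.2 and 96.8 CPM in knockout libraries 2, 3 and 4, against 80.8, 71.1 and 87.7 CPM in wild type. Knockout libraries 2 and 3 were the lowest of the 6 and knockout library 4 the highest, so the mean difference over all libraries was small beside the spread (log2 change −0.11, SE 0.17, edgeR adjusted p = 0.800).

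In the mitosis class, 9 genes had log2 changes between 0.39 and 0.69, and the other 7 between −0.15 and 0.25. Among the genes of chromosome structure, both Top2a and Mki67 belonged to the first set. Top2a (chromosome 11, 98992943 to 99024189) had 22.5, 22.5 and 15.5 CPM in knockout libraries 2, 3 and 4, against 14.3, 13.2 and 13.7 CPM in wild type. Knockout library 4 lay just above wild type and the other 2 well above it (1.47-fold, edgeR adjusted p = 0.186). Mki67 (chromosome 7, 135689788 to 135716379) had 19.5, 21.4 and 10.4 CPM in knockout and 13.4, 11.4 and 9.56 CPM in wild type. Knockout library 4 fell among the wild-type libraries, and the groups overlapped (1.49-fold, edgeR adjusted p = 0.359).

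Cdk1, the kinase that drives entry into mitosis, was at 2.56, 2.57 and 1.84 CPM in knockout and 1.72, 1.07 and 1.54 CPM in wild type, without overlap (1.62-fold, edgeR adjusted p = 0.292). Ccna2, its cyclin A partner, also separated the genotypes (1.51-fold, edgeR adjusted p = 0.249), and shares exon bases with Exosc9 on the opposite strand. The cyclin B genes had smaller log2 changes. Ccnb1 was at 1.23, 0.890 and 0.707 CPM in knockout and 1.04, 0.886 and 0.970 CPM in wild type, with both extremes in knockout (log2 change −0.03, SE 0.27). Ccnb2 differed by 0.25 (SE 0.20), and a pseudogene named for it, Ccnb2-ps, had 2024 counts over the 6 libraries, so its level is less certain.

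Spindle and checkpoint genes had log2 changes of both signs. Bub1 was at 1.70, 1.68 and 0.960 CPM in knockout and 0.928, 0.704 and 1.17 CPM in wild type, high in knockout libraries 2 and 3 and not in library 4 (log2 change 0.65, SE 0.30, edgeR adjusted p = 0.398). Birc5, which encodes survivin of the chromosomal passenger complex, was at 2.79, 2.45 and 1.29 CPM in knockout and 1.63, 0.954 and 1.57 CPM in wild type, likewise high in knockout libraries 2 and 3 (log2 change 0.66, SE 0.33, edgeR adjusted p = 0.419). Its partner kinase Aurkb separated the genotypes (1.31-fold, edgeR adjusted p = 0.307), as did the spindle motor Kif11 (1.55-fold, edgeR adjusted p = 0.253) and Cenpa (1.10-fold, edgeR adjusted p = 0.499).

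The checkpoint kinase gene Bub1b was at 8.72, 9.63 and 6.49 CPM in knockout and 11.6, 7.93 and 7.96 CPM in wild type, with the highest value in wild-type library 2 (log2 change −0.15, SE 0.20). The spindle pole kinase gene Aurka was at 6.13, 5.08 and 5.71 CPM in knockout and 5.07, 5.52 and 6.08 CPM in wild type, with groups that overlapped throughout (log2 change 0.02, SE 0.15). The mitotic kinase gene Plk1 differed by 0.10 (SE 0.31) and Cdc20, an activator of the anaphase-promoting complex, by 0.20 (SE 0.19). Cdc20 shares exon bases with Elovl1 on the opposite strand. Nek2, a kinase of centrosome separation, differed by 0.64 (SE 0.27, edgeR adjusted p = 0.358), with knockout library 2 the highest of all at 5.13 CPM.

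**Figure D3:**
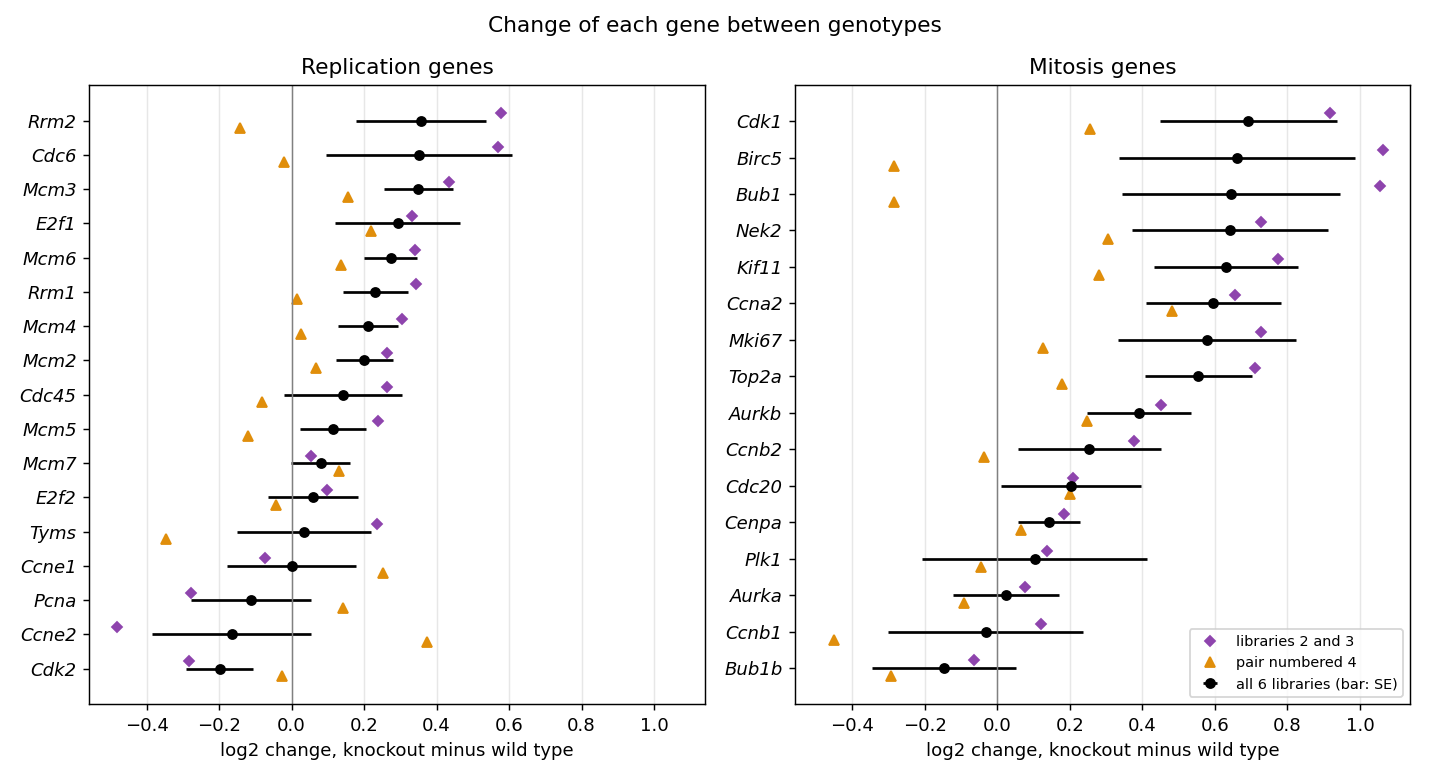
Log2 change of each gene, knockout minus wild type: black points with SE bars from the edgeR fit of all 6 libraries, purple diamonds the difference within libraries 2 and 3, and orange triangles the difference within the pair numbered 4. For 15 of the 16 mitosis genes the value in libraries 2 and 3 is positive, and 9 are positive in the pair numbered 4.

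With a term for the libraries numbered 4 in the model, 4 of the 33 genes rose in knockout and 0 fell. These were Mcm3 (log2 change 0.34, SE 0.07, edgeR adjusted p = 0.0257), Mcm6 (0.27, SE 0.06, edgeR adjusted p = 0.0353), Top2a (0.54, SE 0.11, edgeR adjusted p = 0.0275) and Mki67 (0.54, SE 0.13, edgeR adjusted p = 0.0450). In the same fit 2.59% of all tested genes were called higher and 1.81% lower. The model takes the genotype difference to be the same in all library numbers. For Mcm3, Mcm6, Top2a and Mki67 it was 0.44, 0.34, 0.71 and 0.73 on the log2 scale within libraries 2 and 3. Within pair 4 it was 0.16, 0.14, 0.18 and 0.13. In libraries 2 and 3 alone, 7 replication genes and 9 mitosis genes rose and 2 replication genes fell, where 13.6% of all tested genes were called higher and 10.4% lower. The genes that rose there were Mcm2, Mcm3, Mcm4, Mcm5, Mcm6, Rrm1 and Rrm2, and Mki67, Top2a, Ccna2, Cdk1, Aurkb, Bub1, Birc5, Kif11 and Nek2 (edgeR adjusted p at most 0.0234). Those that fell were Cdk2 and Pcna (edgeR adjusted p = 0.0224 and 0.00752). Birc5 and Bub1 rose there by 1.02 and 1.05 on the log2 scale, Mki67 by 0.72 and Pcna fell by 0.28. Leaving out knockout library 4 brought Mcm3, Mki67 and Top2a past the threshold (edgeR adjusted p = 0.0338, 0.0489 and 0.0164). In that fit 59 of all 13906 tested genes were called higher and 87 lower. Leaving out wild-type library 4 brought Mcm6 and Rrm1 past it (edgeR adjusted p = 0.0464 and 0.0391), where 630 of all 13901 tested genes were called higher and 270 lower.

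A test of whether the genotype difference in the pair numbered 4 departed from that in libraries 2 and 3 called 0 of the 33 genes, where it called 1.19% of all tested genes (edgeR, adjusted p under 0.05). At an unadjusted p under 0.05 it held 11 of the 33, against 16% of all tested genes. The log2 change in the pair numbered 4 minus that in libraries 2 and 3 was negative for 16 of 16 mitosis genes and 12 of 17 replication genes, against 51.6% of all genes. Negative values include genes whose sign changed, such as Ccnb1 (0.12 within libraries 2 and 3, −0.45 within pair 4), and Bub1b, which was negative in both (−0.07 and −0.29). For Pcna this value was 0.42 (SE 0.11, edgeR adjusted p = 0.0758), for Mcm5 −0.36 (SE 0.10, edgeR adjusted p = 0.0884) and for Mki67 −0.60 (SE 0.19, edgeR adjusted p = 0.134).

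The libraries numbered 4 were also compared with libraries 2 and 3 by 1 term fitted over both genotypes. Mki67 fell to 0.626-fold (edgeR adjusted p = 0.0141), Plk1 to 0.561-fold (edgeR adjusted p = 0.0247) and E2f2 to 0.788-fold (edgeR adjusted p = 0.00517), while Pcna rose 1.34-fold (edgeR adjusted p = 0.0178). These were the members called in that comparison, 1 higher and 3 lower, where 7.83% of all tested genes were called higher and 6.95% lower. Of the 16 mitosis genes, 14 lay lower in the libraries numbered 4 (median log2 difference −0.28), and of the 17 replication genes 7 did (median 0.09). Over all tested genes 51.7% lay lower, with a median of −0.01. For the mitosis genes the gap lay mainly in knockout. Their mean log2 deviation was −0.18 in knockout library 4, against 0.37 and 0.34 in knockout libraries 2 and 3. Wild-type library 4, at −0.22, lay between wild-type libraries 2 and 3, at −0.06 and −0.25.

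Further genes of both pathways were examined as lists of names. Of 52 further replication genes, all tested, edgeR called 0, DESeq2 1 (Tk1) and limma-voom 0. Of these, 3 were higher and 2 lower at an unadjusted p under 0.05, 34 had a positive log2 change and the median was 0.04. Of 79 further mitosis genes, 78 were tested, of which edgeR called 0, DESeq2 3 (Nusap1, Pttg1 and Tubb5) and limma-voom 0. Here 11 were higher and 3 lower at an unadjusted p under 0.05, 61 were positive and the median was 0.15. Over all tested genes, 7.85% were higher and 5.51% lower at that p (edgeR), and 48.8% were positive. DESeq2 called 2.57% of all tested genes, edgeR 0.404% and limma-voom 0.331%. The smallest p among the replication genes belonged to Tk1, the salvage enzyme thymidine kinase 1, which lay lower in every knockout library than in any wild-type library. Knockout averaged 22.5 ± 3.85 CPM and wild type 40.1 ± 7.79 CPM (n = 3 each, log2 change −0.83, edgeR adjusted p = 0.105). Asf1b, a histone chaperone, followed with a log2 change of 0.47 (edgeR adjusted p = 0.219).

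Among the further mitosis genes the smallest p belonged to Pttg1, which encodes securin, the inhibitor of sister chromatid separation. Knockout averaged 23.3 ± 1.97 CPM and wild type 34.2 ± 2.02 CPM (n = 3 each, log2 change −0.55, edgeR adjusted p = 0.0547). The tubulin gene Tubb5 was next, with a log2 change of 0.33 (edgeR adjusted p = 0.163). With the term for the libraries numbered 4, Tk1 and Pttg1 fell (edgeR adjusted p = 0.000277 and 0.00186) and Tubb5, Nusap1 and Cks1b rose (edgeR adjusted p at most 0.0423). These were the only genes of both lists called in that fit, where 2.59% of all tested genes were called higher and 1.81% lower.

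Markers of other cell types were compared beside the mitosis genes. Of 10 germinal centre B-cell markers, 8 had a positive log2 change (median 0.27), with 0 past the threshold in edgeR, limma-voom and DESeq2 and 0 at an unadjusted p under 0.05 (edgeR), and the groups overlapped for all 10. As a median over the list, libraries 2 and 3 differed by 0.50 and the pair numbered 4 by −0.05. Their summed level, made up mostly of Bcl6, was 197 to 229 CPM in knockout and 220 to 241 CPM in wild type. The part of these cells in the mitosis result was not tested.

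Of the 10 plasma cell markers in the table, 8 were tested and 3 were positive, with a summed level of 607 to 668 CPM in knockout and 580 to 689 CPM in wild type. The median log2 change was −0.06, and edgeR, DESeq2 and limma-voom called 0. At an unadjusted p under 0.05 (edgeR), 2 were higher and 1 lower, against 7.85% and 5.51% of all tested genes. With the term for the libraries numbered 4, edgeR called 0 higher and 1 lower, against 2.59% and 1.81%. Igj, the joining chain of secreted antibodies, averaged 21.7 ± 10.9 CPM in knockout against 8.72 ± 4.26 CPM in wild type (n = 3 each, edgeR adjusted p = 0.325), and its part in the result was not tested either. Of the 13 erythroid markers 7 were tested, and their summed level was 10.8 to 17.5 CPM in knockout and 8.99 to 22.3 CPM in wild type. Between the libraries numbered 4 and the others, where 14 of 16 mitosis genes lay lower, 6 of these 7 lay higher (median log2 difference 0.70). There edgeR called 2 of the 7 higher and 1 lower, where it called 7.83% of all tested genes higher and 6.95% lower. The part of erythroid cells in the mitosis result of that comparison was not tested. Of 13 T and NK cell markers only 3 passed the filter and were tested. All 3 (Cd3d, Klrb1c and Cd2) were higher in every knockout library than in any wild-type library, as were 10.2% of all tested genes. Past the threshold were 0 in edgeR, limma-voom and DESeq2. At an unadjusted p under 0.05 (edgeR) 2 were higher, as were 7.85% of all tested genes. The median log2 change of the 3 was 1.003, with 1.29 within libraries 2 and 3 and 0.10 within pair 4. Cd3d ran from 0.278 to 0.635 CPM in knockout and from 0.158 to 0.257 CPM in wild type, and Cd3e and Cd8a were at most 0.114 CPM in every library. Cd2, which B cells also express, made up nearly all of that list's summed level of 245 to 267 CPM in knockout and 208 to 243 CPM in wild type. The part of T and NK cells in the result was not tested. Of 13 myeloid markers 6 were tested, with a summed level of 26.5 to 37.5 CPM in knockout and 29.99 to 34.5 CPM in wild type. DESeq2 called 1 of them, the lysozyme gene Lyz2, which was lower in knockout (log2 change −0.59, edgeR adjusted p = 0.221), and Elane, an enzyme of neutrophil granules, was at 0 in every library.

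**Figure D4:**
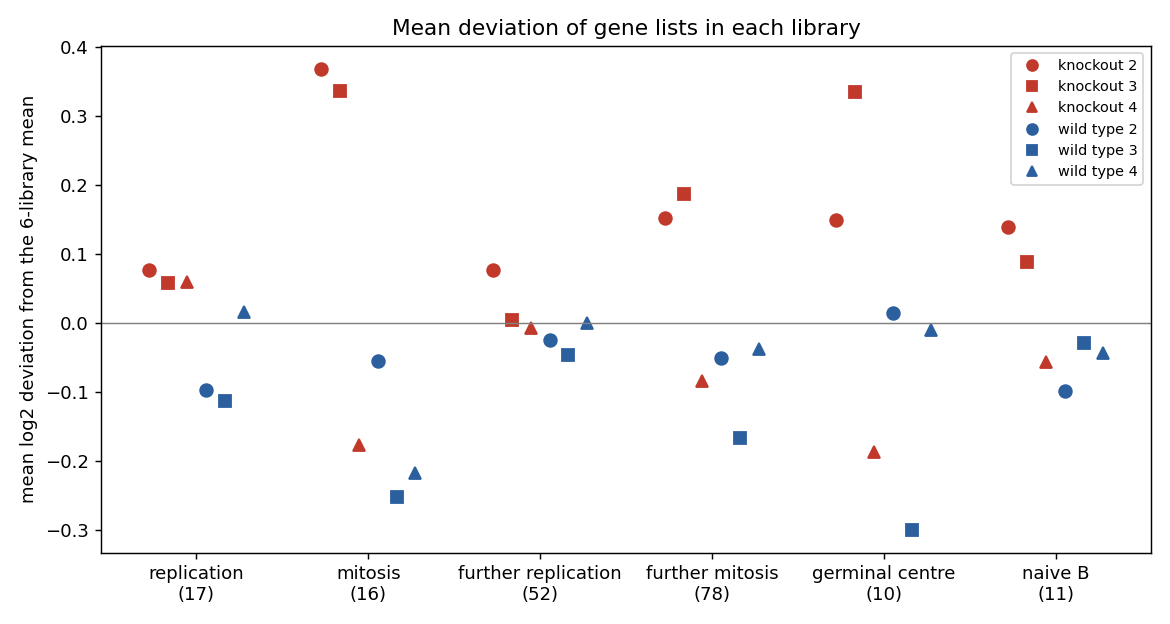
Mean log2 deviation of each gene list from its mean over the 6 libraries (number of genes in parentheses), with 1 point per library, knockout in red and wild type in blue. The mitosis genes are highest in knockout libraries 2 and 3, at 0.37 and 0.34, with knockout library 4 at −0.18 near wild-type libraries 3 and 4 at −0.25 and −0.22.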

How the data were processed

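The authors deposited whole-number fragment counts per gene name. Per the file headers, featureCounts 1.5.1 was run in paired mode on GENCODE vM3 exons, with no strand option. Alignment used STAR 2.3.0e with the build GRCm38.p3, per the submitters' processing notes. The labels' protocols name a stranded library kit, but because counting used no strand option, reads of overlapping genes on opposite strands cannot be told apart in these counts. A further 6 columns of counts match no sample used here and were left out.

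Genes were filtered with filterByExpr (minimum count 10; 13604 of 41053 tested), scaled by TMM and tested with edgeR (quasi-likelihood F test), p-values being adjusted by Benjamini-Hochberg over all tested genes and a threshold of 0.05 (edgeR 4.0.16, limma 3.58.1, DESeq2 1.42.0, R 4.3.3). The fit was tested on simulated data, in which no difference by library number or sex was set. That test therefore does not cover the shifts seen with the libraries numbered 4. CPM is relative to TMM-scaled totals; 3 counts correspond to 0.0679 to 0.0856 CPM. The SE of a log2 change is its size over the square root of F. The term for the libraries numbered 4 and the test of the difference between library sets were chosen with earlier results of these data known, as were the members and gene lists. All members are named; full values are given for those past the threshold in either model, the 3 highest and 3 lowest in each class, and Mki67, Top2a, Pcna and Mcm2; of other lists, the called genes or the 2 with the smallest p. Igj, Bcl6, Cd2, Cd3d, Klrb1c, Lyz2, Elane, Cd3e and Cd8a were picked after their values were seen.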

Additional observations from a re-analysis of the deposited data

How the results depend on the processing

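The count of all called genes, 55 with all 6 libraries, was 262 without a filter on low counts, 349 by DESeq2, 599 with the term for the libraries numbered 4 and 3307 in libraries 2 and 3 alone, and 17 to 900 when 1 library was left out. Called replication genes numbered 2 with that term, 9 in libraries 2 and 3 alone and 0 to 2 with 1 library left out. Called mitosis genes numbered 1 without the filter, 1 by DESeq2, 2 with the term, 9 in libraries 2 and 3 alone and 0 to 2 with 1 library left out. The median log2 change of the replication genes was 0.27 in libraries 2 and 3 alone and 0.10 to 0.22 with 1 library left out, the highest without wild-type library 4. That of the mitosis genes was 0.31 to 0.59 with 1 library left out, the lowest without knockout library 2. Without the filter, 5 mitosis genes were called between the libraries numbered 4 and the others, against 2 with it. The share of all genes called there is not given here, so the 5 have no background beside them. The cause of these shifts was not tested.

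With the replicate number as a block (replicate block), 85 genes were called, and 0 members. Deviations of same-numbered libraries correlated at 0.09, 0.21 and 0.38 for the numbers 2, 3 and 4, and knockout library 2 correlated best with wild-type library 3 (0.23), so the numbers were not taken as pairs.

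Of the 33 members, 25 kept their direction in every one of the 15 other settings that gave them a value. Scaled to library totals only, Tyms was at −0.011 and Aurka at −0.023. Ccne1 was at 0.0090 without the filter, 0.022 by limma-voom, 0.027 with the block and 0.012 with the term, and Ccnb1 was at 0.14 in libraries 2 and 3 alone. With 1 library left out, Ccne1 ran from −0.14 to 0.24, E2f2 from −0.025 to 0.18, Pcna from −0.35 to 3.3e-05, Tyms from −0.047 to 0.19, Ccnb1 from −0.27 to 0.13, Plk1 from −0.18 to 0.35, Aurka from −0.045 to 0.093 and Bub1b from −0.27 to 0.059; none of these 8 was called in those fits. Members under about 100 counts in a library, such as Bub1, Ccnb1, Cdc6, Cdk1 and Birc5, are limited by depth.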

Other observations

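Regulators of the cell cycle transcription programme were examined as a further list of 26 genes of the retinoblastoma and DREAM families, other E2F factors and inhibitors of cyclin-dependent kinases, of which 25 were tested. None was called by edgeR, DESeq2 or limma-voom, 2 were higher and 1 lower at an unadjusted p under 0.05, 12 had a positive log2 change and the median was −0.0037. E2f8, an E2F factor that represses transcription, had the smallest p, averaging 1.20 ± 0.393 CPM in knockout against 0.606 ± 0.0970 CPM in wild type (n = 3 each, log2 change 0.99, edgeR adjusted p = 0.253). Tfdp1, the partner of E2F factors in DNA binding, followed at 11.4 ± 0.773 and 8.97 ± 0.643 CPM (n = 3 each, log2 change 0.34, edgeR adjusted p = 0.278). Neither passed with the term for the libraries numbered 4 (edgeR adjusted p = 0.0780 and 0.0829).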
